A study of Mus musculus with 12 samples.

Results

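The genes described here are those of autophagy and mitophagy, 37 genes in all, from the kinases that start an autophagosome to the receptors that load it and the factors that switch the pathway on. A gene entered when the arrays carried a probe set annotated with its symbol and no other, and where there were several the brightest over the 12 arrays stood for the gene. On that rule 35 of the 37 were measured, among 22180 genes in all. The other 2, Optn, which encodes the receptor optineurin, and the mitophagy gene Park2, are not analysed here.

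The 4 groups were brown adipose tissue of male Zbtb7b knockout (KO) mice held at 4 °C for 4 h, KO mice at 22 °C, wild-type (WT) mice held at 4 °C for 4 h and WT mice at 22 °C, with 3 arrays in each. Zbtb7b encodes a zinc finger transcription factor. All mice were 10 weeks old and ate standard chow. The labels do not say how the knockout was made, whether it was confined to fat, or which strain carried it. The titles number 3 biological replicates per group, while the description field numbers them as pools and names liver and another gene's knockout. The number of animals behind an array is therefore unknown, and a p-value here measures the spread among the arrays deposited, which may be partly technical.

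The tissue label was checked first. Ucp1, which encodes the uncoupling protein of brown fat, had a log2 signal between 11.55 and 12.95 on every array, and the mean of 15 hepatocyte genes stayed between 2.75 and 2.98. Zbtb7b itself read 2.96, 3.38 and 3.01 in KO mice in the cold, against 4.36, 4.26 and 4.63 in WT mice in the cold, and 3.62, 3.50 and 3.30 in KO mice at room temperature, against 4.47, 4.52 and 4.76 in WT mice at room temperature. KO arrays lay below WT arrays at both temperatures, by 1.30 ± 0.16 on the log2 scale in the cold (SE, adjusted p = 0.00365) and by 1.11 ± 0.16 at room temperature (adjusted p = 0.00904), in limma's test adjusted by Benjamini-Hochberg over all genes. All 6 KO values lay under a log2 signal of 4, at the low end of the range where differences are compressed, and whether the probe set lies inside the deleted stretch is not known. Arrays of a group correlated at 0.982 to 0.994 over genes, and arrays of different groups at 0.962 to 0.991, which overlaps that range. Markers of other cells also moved: the mean log2 signal of 22 skeletal muscle genes was 8.10, 4.42 and 7.87 in KO cold, 8.25, 7.31 and 3.35 in KO room temperature, 5.04, 6.96 and 7.45 in WT cold, and 3.18, 6.15 and 2.96 in WT room temperature. The mean of 17 macrophage genes ran from 5.86 to 6.60 in KO cold, from 5.98 to 6.40 in KO room temperature, from 5.91 to 6.29 in WT cold, and from 5.32 to 5.63 in WT room temperature. On 1 array, KO cold replicate 3, the mean of 13 neutrophil genes was 3.94, against 2.02 to 2.65 on the other 11.

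Autophagy encloses a portion of cytoplasm in a double membrane, the autophagosome, and delivers it to the lysosome. The ULK1 kinase complex starts the process, a class III phosphatidylinositol 3-kinase marks the membrane, lipid transfer proteins extend it, and a pair of ubiquitin-like conjugation systems attach LC3 and GABARAP proteins to it, which then hold cargo through receptors. Mitophagy is the form that removes mitochondria. In brown and beige fat it is best known for clearing mitochondria when thermogenic stimulation ends, and its genes have been studied there in both the active and the resting tissue.

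In the cold, the messages of these genes moved in both directions. In KO mice 10 of the 35 passed at an adjusted p under 0.05, 4 higher and 6 lower than at room temperature, where 8.34% of all genes passed higher and 10.8% lower. In WT mice 10 passed, 6 higher and 4 lower, where 9.39% of all genes passed higher and 7.98% lower. The background in both directions was 19.2% of all genes in KO and 17.4% in WT, so the members' 28.6% in each genotype stood above it. Among brighter genes, those whose log2 signal averaged 5 or more, the background was 37.3% in KO and 34.4% in WT, and 10 of the 32 members at that level (31.2%) passed in each genotype, slightly below both. Cold and room temperature arrays did not overlap for 15 members in KO (42.9%, beside 31.6% of all genes and 51.0% of brighter ones) and for 25 in WT (71.4%, beside 36.8% and 61.7%). The median difference over the members was -0.01 in KO and 0.15 in WT, beside 0.00 and -0.02 over all genes. In whole tissue, fewer cells of a type and less RNA per cell cannot be told apart.

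A set of 7 genes passed in both genotypes and in the same direction. Ulk1, Atg12 and Sqstm1 were higher in the cold, and Ulk2, Pik3c3, Wipi1 and Atg10 were lower. These 7 were 70.0% of the 10 called in each genotype. Over all genes, 2502 were called in both, which was 58.8% of those called in KO and 65.0% of those called in WT. The cold comparisons in KO and in WT share no arrays, but both use the same estimate of spread for each gene. Their calls are therefore not independent. Over the 35 members the cold differences in KO and WT correlated at Pearson's r = 0.87 and Spearman's rho = 0.88, a description across genes, beside 0.82 for both measures over the 8475 brighter genes. The sign was the same in 27 of the 35 members, beside 14595 of all 22180 genes. In neither genotype did 22 members pass, beside 16576 of all genes.

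Promoter windows of the genes called in both genotypes are shown because these are the messages that moved with temperature whatever the genotype. RefSeq (GRCm38.p6) windows from 250 bases before to 50 after the start were at hand for 29 of the 35 measured members. Windows are printed for 5 of these 7, and not for Atg12 or Pik3c3. Capitals mark the GC box GGGCGG, which zinc finger factors of the Sp family bind and which reads CCGCCC when it lies on the other strand, and TGACG, which reads CGTCA there and is the core of the site of cAMP-responsive factors. The windows all lie on the minus strand, at chr5:110810032-110810331 for Ulk1, chr11:50210771-50211070 for Sqstm1, chr11:61855043-61855342 for Ulk2, chr11:109611340-109611639 for Wipi1 and chr13:91223938-91224237 for Atg10, and are written 5′ to 3′ in the direction of transcription.
Ulk1: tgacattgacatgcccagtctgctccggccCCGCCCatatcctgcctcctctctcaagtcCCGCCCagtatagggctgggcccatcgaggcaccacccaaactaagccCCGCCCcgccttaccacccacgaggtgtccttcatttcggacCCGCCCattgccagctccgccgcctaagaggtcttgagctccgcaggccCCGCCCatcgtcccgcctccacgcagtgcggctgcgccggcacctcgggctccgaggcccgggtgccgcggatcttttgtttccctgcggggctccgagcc
Sqstm1: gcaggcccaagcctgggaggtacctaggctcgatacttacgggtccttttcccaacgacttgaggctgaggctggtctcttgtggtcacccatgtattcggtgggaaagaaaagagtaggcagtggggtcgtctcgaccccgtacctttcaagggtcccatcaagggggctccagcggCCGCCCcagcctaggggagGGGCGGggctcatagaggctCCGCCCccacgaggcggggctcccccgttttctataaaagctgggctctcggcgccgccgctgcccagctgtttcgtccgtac
Ulk2: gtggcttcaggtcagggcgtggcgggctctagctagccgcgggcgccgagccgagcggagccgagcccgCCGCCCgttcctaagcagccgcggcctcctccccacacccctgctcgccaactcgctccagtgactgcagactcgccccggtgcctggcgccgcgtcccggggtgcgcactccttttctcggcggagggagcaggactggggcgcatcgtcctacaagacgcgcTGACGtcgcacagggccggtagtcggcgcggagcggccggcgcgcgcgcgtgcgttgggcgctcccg
Wipi1: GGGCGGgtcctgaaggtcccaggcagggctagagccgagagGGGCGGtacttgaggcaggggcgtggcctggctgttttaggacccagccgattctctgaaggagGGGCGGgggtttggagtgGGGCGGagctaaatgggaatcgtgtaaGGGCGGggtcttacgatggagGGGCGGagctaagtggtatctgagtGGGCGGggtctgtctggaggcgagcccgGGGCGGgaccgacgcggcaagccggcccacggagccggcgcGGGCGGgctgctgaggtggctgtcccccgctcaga
Atg10: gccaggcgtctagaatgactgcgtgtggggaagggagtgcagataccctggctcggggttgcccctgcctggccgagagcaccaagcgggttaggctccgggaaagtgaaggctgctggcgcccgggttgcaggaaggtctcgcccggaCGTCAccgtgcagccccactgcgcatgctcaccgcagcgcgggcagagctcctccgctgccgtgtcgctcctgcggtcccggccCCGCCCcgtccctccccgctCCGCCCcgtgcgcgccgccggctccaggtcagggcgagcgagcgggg

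All 5 windows held a GC box, with 9 in Wipi1, 5 in Ulk1, 3 in Sqstm1, 2 in Atg10 and 1 in Ulk2. They were also rich in G and C, at 63.3% in Sqstm1 to 74.7% in Ulk2. Among the windows printed, TGACG was in 2 of the 3 from lower genes, Ulk2 and Atg10 with 1 each. It was in neither Wipi1, the other lower gene printed, nor the higher genes printed, Ulk1 and Sqstm1. Over the 29 members with a window, on either strand, 21 (72.4%) held GGGCGG, against 38.2% of 27025 genes with a window. TGACG was in 10 (34.5%), against 23.0% of genes, and the full cAMP site TGACGTCA, which contains that core, was in 2 (6.90%), against 2.03%. The E-box CACGTG was in 4 (13.8%), against 8.09%, and the longer TCACGTGA, which contains it and is a site of TFEB and TFE3, was in 1, that of Atg3 (3.45%), against 1.12%. CCAAT was in 8 (27.6%), against 41.1%. The median G and C content was 59.3% over the members' windows and 52.7% over all windows. A match of letters is a description of the window and not a binding site.

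**Figure D1:**
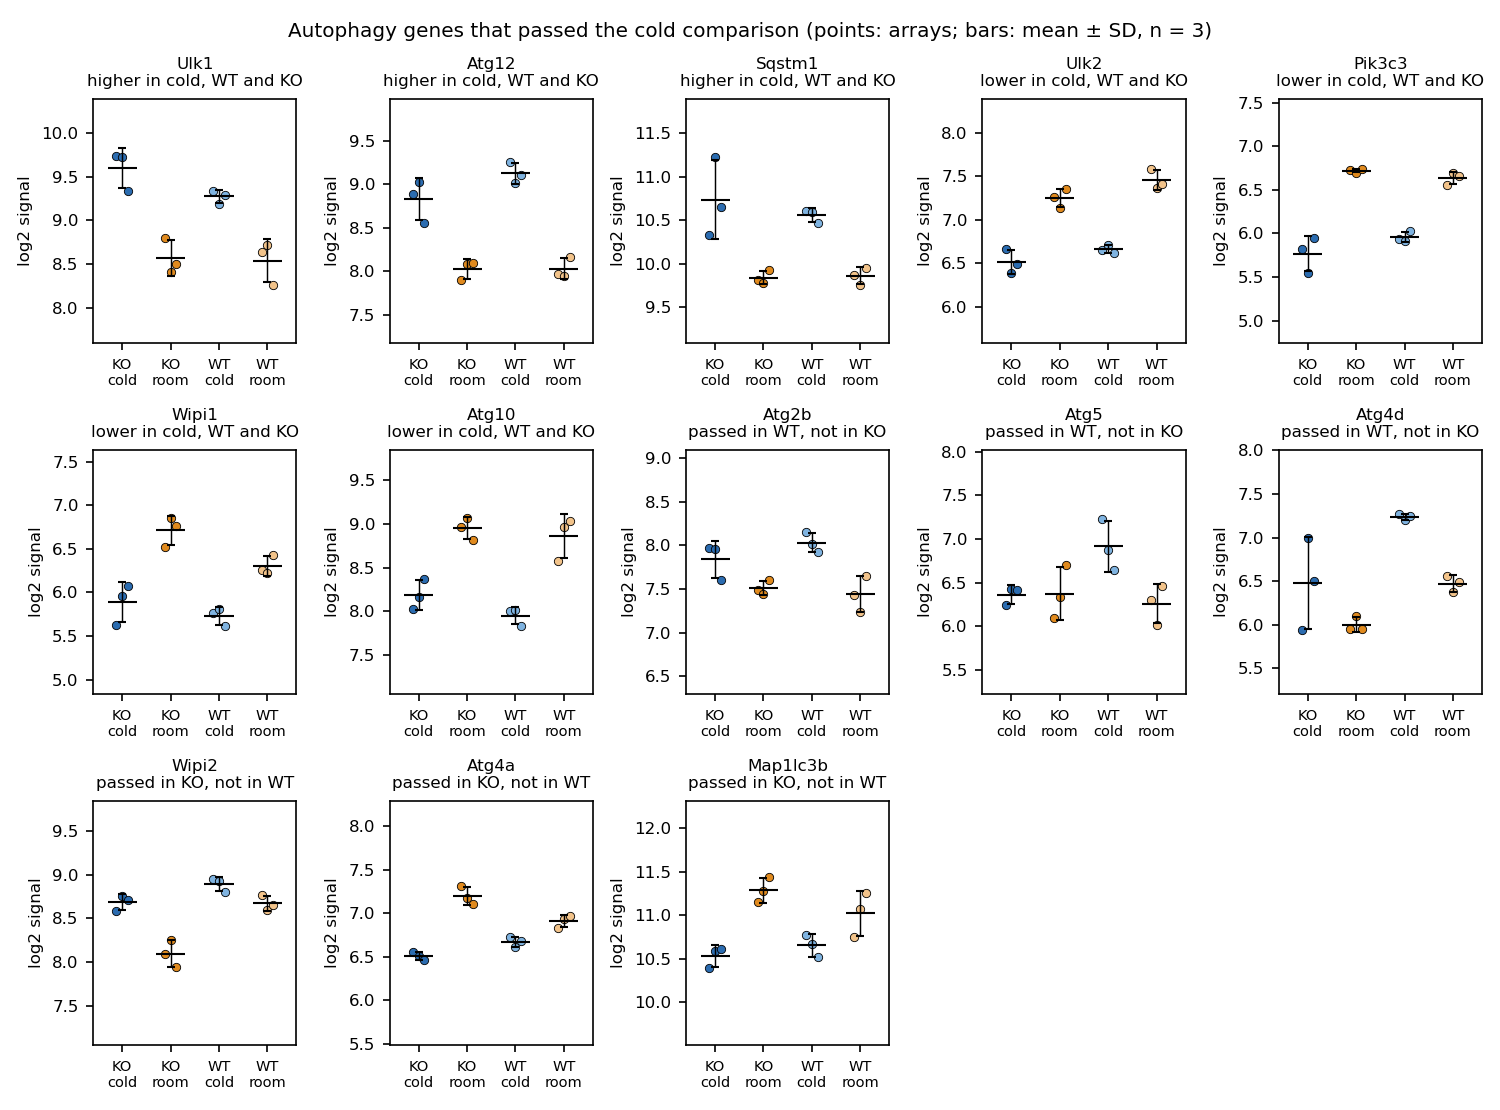
Log2 signal of the 13 genes that passed in either cold comparison, by group from left to right as KO cold, KO room temperature, WT cold and WT room temperature; points are single arrays, bars the mean ± SD of 3, and each panel spans the same number of log2 units. In the panels of Ulk1, Atg12 and Sqstm1 the cold arrays sit above the room temperature arrays of the same genotype, and in those of Ulk2, Pik3c3, Wipi1 and Atg10 they sit below.

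Of the 4 members of the ULK1 complex, 1 was higher and 1 lower in the cold, in each genotype. Ulk1, the kinase that answers to nutrient and energy signals, had log2 signals of 9.73, 9.73 and 9.33 in KO cold, against 8.80, 8.41 and 8.50 in KO room temperature, and 9.34, 9.19 and 9.30 in WT cold, against 8.63, 8.72 and 8.25 in WT room temperature. Every cold array exceeded every room temperature array. The rise was 2.04-fold in KO (log2 1.03 ± 0.17 SE, adjusted p = 0.00102) and 1.67-fold in WT (0.74 ± 0.17, adjusted p = 0.00838). Ulk2, its close relative that can stand in for it in many cells, went the opposite way. It had 6.66, 6.39 and 6.50 in KO cold, against 7.26, 7.14 and 7.35 in KO room temperature, and 6.65, 6.71 and 6.62 in WT cold, against 7.58, 7.37 and 7.41 in WT room temperature. No cold array reached the room temperature range, and the fall was 1.66-fold in KO (adjusted p = 0.00119) and 1.73-fold in WT (adjusted p = 0.000822). The scaffold partners Atg13 and Rb1cc1 did not pass, with log2 differences of 0.24 and 0.31 in KO and of 0.31 and 0.27 in WT.

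Of the 3 members in the phosphatidylinositol 3-kinase complex, the catalytic subunit alone passed. Pik3r4, a gene of this complex outside the members, was lower in the cold in KO (-0.51, adjusted p = 0.0441), a call kept in 8 of 22 alternative settings. In WT it differed by -0.26 and did not pass (adjusted p = 0.327). Pik3c3, which encodes that enzyme (VPS34), had log2 signals of 5.82, 5.55 and 5.94 in KO cold, against 6.73, 6.70 and 6.74 in KO room temperature, and 5.94, 5.91 and 6.03 in WT cold, against 6.56, 6.69 and 6.65 in WT room temperature. The cold and room temperature arrays did not overlap in either genotype, and the fall was 1.93-fold in KO (adjusted p = 0.000242) and 1.60-fold in WT (adjusted p = 0.00243). Becn1, a regulatory partner of Pik3c3, differed by 0.11 in KO and 0.22 in WT, and Atg14, which directs the complex to autophagy, by -0.17 and 0.15. Neither gene passed in either genotype.

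Among the 6 genes of lipid transfer and phagophore growth, the WIPI proteins, which read the lipid that VPS34 makes, moved apart. Wipi1 had log2 signals of 5.63, 5.96 and 6.07 in KO cold, against 6.53, 6.85 and 6.76 in KO room temperature, and 5.77, 5.81 and 5.62 in WT cold, against 6.25, 6.22 and 6.43 in WT room temperature. Cold arrays lay below room temperature arrays in both genotypes. The fall was 1.77-fold in KO (adjusted p = 0.00184) and 1.48-fold in WT (adjusted p = 0.0175). In WT the call was lost without room temperature replicate 3 (-0.50, adjusted p = 0.0634), without cold replicate 3 (-0.51, adjusted p = 0.0739), and with the mean of the skeletal muscle genes as a covariate (-0.49, adjusted p = 0.0635). Wipi2, which recruits the conjugation machinery, had 8.59, 8.76 and 8.71 in KO cold, against 8.10, 8.25 and 7.94 in KO room temperature, and 8.96, 8.92 and 8.80 in WT cold, against 8.77, 8.60 and 8.65 in WT room temperature. Its arrays separated by temperature in both genotypes, but only the KO rise of 1.51-fold passed (0.59 ± 0.12, adjusted p = 0.00461), and the WT difference of 0.22 did not (adjusted p = 0.263).

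Atg2b, a bridge that carries lipid into the growing membrane, had log2 signals of 7.97, 7.96 and 7.60 in KO cold, against 7.49, 7.44 and 7.60 in KO room temperature, and 8.15, 8.02 and 7.93 in WT cold, against 7.43, 7.24 and 7.65 in WT room temperature. The WT groups did not overlap, whereas the lowest KO cold array met the KO room temperature range. The WT rise was 1.51-fold (adjusted p = 0.0146) and the KO difference was 0.33 (adjusted p = 0.149). In WT the call was lost without room temperature replicate 2 (0.49, adjusted p = 0.0631) or cold replicate 1 (0.53, adjusted p = 0.0644), and in KO the difference passed without cold replicate 3 (0.45, adjusted p = 0.0496) and was 0.27 without either of the other cold arrays (adjusted p = 0.322 and 0.329). Atg2a, the other lipid bridge, and Atg9a, a membrane protein of the vesicles that seed the phagophore, did not pass in either genotype, with log2 differences between -0.26 and 0.19. Atg9b averaged under a log2 signal of 4, and its log2 differences were -0.05 and -0.11.

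Of the 7 genes of the ATG12 and LC3 conjugation systems, the modifier rose and one of its enzymes fell. Atg12, the ubiquitin-like protein that is joined to ATG5, had log2 signals of 8.89, 9.03 and 8.56 in KO cold, against 7.90, 8.09 and 8.10 in KO room temperature, and 9.26, 9.02 and 9.11 in WT cold, against 7.97, 7.95 and 8.17 in WT room temperature. Its cold arrays exceeded all room temperature arrays, by 1.74-fold in KO (0.80 ± 0.14, adjusted p = 0.00201) and 2.14-fold in WT (1.10 ± 0.14, adjusted p = 0.00031). Atg10, the E2-like enzyme that transfers ATG12, had 8.03, 8.17 and 8.37 in KO cold, against 8.97, 9.07 and 8.82 in KO room temperature, and 8.003, 8.02 and 7.83 in WT cold, against 8.58, 8.97 and 9.04 in WT room temperature. No cold array reached the room temperature range, with a fall of 1.70-fold in KO (adjusted p = 0.00356) and 1.88-fold in WT (adjusted p = 0.00132).

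Atg5, the acceptor of ATG12, had log2 signals of 6.24, 6.43 and 6.42 in KO cold, against 6.09, 6.33 and 6.70 in KO room temperature, and 7.23, 6.87 and 6.65 in WT cold, against 6.30, 6.01 and 6.46 in WT room temperature. The KO groups overlapped and the WT groups did not. The WT rise was 1.58-fold (0.66 ± 0.19, adjusted p = 0.0318), the KO difference was -0.01 (adjusted p = 0.979), and the difference between the cold effects was -0.67 (95% interval -1.25 to -0.08), which did not pass over all genes (adjusted p = 0.414). The WT call was lost without room temperature replicate 1 (adjusted p = 0.0680) or 2 (0.122), without cold replicate 1 (0.136) or 2 (0.0731), with each array centred on its median (0.0584), and with the replicate number as a block (0.0501). Atg3, the E2-like enzyme of LC3, Atg7, the shared E1-like enzyme, and Atg16l1 and Atg16l2, which place the ATG12 to ATG5 conjugate on the membrane, did not pass. Their log2 differences in KO and WT were 0.09 and 0.46 for Atg3, -0.41 and -0.33 for Atg7, and 0.15 and 0.13 for Atg16l1. Atg7 passed in KO without cold replicate 3 (-0.58, adjusted p = 0.0226) and was -0.20 without cold replicate 1 (adjusted p = 0.394), and Atg3 passed in WT with the muscle covariate (0.66, adjusted p = 0.0144). Atg16l2, whose log2 signal averaged under 4, was at 0.28 in KO and 0.41 in WT, and the WT value passed when KO cold replicate 1 (adjusted p = 0.0488) or 3 (0.0318) was left out of the shared estimate of spread.

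Of the 4 ATG4 proteases, which cut LC3 and GABARAP proteins before and after use, Atg4a passed in KO alone and Atg4d in WT alone. Atg4a had log2 signals of 6.55, 6.51 and 6.46 in KO cold, against 7.31, 7.17 and 7.11 in KO room temperature, and 6.73, 6.62 and 6.68 in WT cold, against 6.84, 6.93 and 6.97 in WT room temperature. Cold arrays lay below room temperature arrays in both genotypes. The KO fall was 1.61-fold (-0.69 ± 0.11, adjusted p = 0.000925), and the WT difference of -0.24 did not pass (adjusted p = 0.168). Atg4d had 5.94, 6.999 and 6.50 in KO cold, against 5.96, 6.10 and 5.95 in KO room temperature, and 7.27, 7.20 and 7.25 in WT cold, against 6.56, 6.37 and 6.49 in WT room temperature. Its KO cold arrays spread over more than the distance between the WT groups. The WT rise was 1.70-fold (0.77 ± 0.21, adjusted p = 0.0221), and the KO difference was 0.48 (adjusted p = 0.138). In WT the call was lost without any one of the 3 cold arrays (adjusted p = 0.0678, 0.0564 and 0.0652) or without room temperature replicate 2 (0.0736) or 3 (0.0527), at values of 0.72 to 0.79, and in KO the difference passed without cold replicate 1 (0.75, adjusted p = 0.00632) and was 0.22 without cold replicate 2 (adjusted p = 0.442). Atg4b, at 0.14 in KO and 0.28 in WT, did not pass. Neither did Atg4c, at -0.29 in KO and -0.52 in WT, but it passed in KO without cold replicate 1 (-0.53, adjusted p = 0.0427) and was -0.04 without cold replicate 3 (adjusted p = 0.896). The WT value passed with KO cold replicate 1 or 3 left out of the shared spread (adjusted p = 0.0244 in each case).

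Of the 5 LC3 and GABARAP proteins that coat the autophagosome, 1 passed, and in KO. Map1lc3b, the usual marker of autophagosomes, had log2 signals of 10.39, 10.59 and 10.61 in KO cold, against 11.15, 11.28 and 11.43 in KO room temperature, and 10.77, 10.67 and 10.52 in WT cold, against 10.75, 11.07 and 11.25 in WT room temperature. The KO groups were apart and the WT groups met at a single array. The KO fall was 1.69-fold (-0.75 ± 0.15, adjusted p = 0.00387), and the WT difference was -0.37 (adjusted p = 0.121), which passed without room temperature replicate 1 (-0.51, adjusted p = 0.0422) and was -0.26 without replicate 3 (adjusted p = 0.341). Map1lc3a had 7.69, 7.59 and 7.88 in KO cold, against 8.28, 8.01 and 8.21 in KO room temperature, and 8.01, 7.77 and 7.69 in WT cold, against 8.67, 8.03 and 8.22 in WT room temperature. It was lower in the cold in both, by log2 differences of -0.45 in KO (adjusted p = 0.0933) and -0.48 in WT (adjusted p = 0.0768), and both passed when the test was limited to the brighter genes (adjusted p = 0.0447 and 0.0356). The WT value also passed without WT room temperature replicate 2 (-0.62, adjusted p = 0.0401) and was -0.30 without replicate 1 (adjusted p = 0.267), and the KO value without WT room temperature replicate 1 (adjusted p = 0.0464), which bears on it through the shared spread. Gabarap stood at -0.02 in KO and 0.06 in WT, with 95% intervals of -0.26 to 0.22 and -0.18 to 0.30, and its second probe set gave -0.09 and 0.05. Gabarapl1 ran from 10.00 to 11.07 within the KO cold group alone, the widest spread of any member there (SD 0.56), and differed by 0.27 in KO and 0.39 in WT. Gabarapl2 differed by -0.33 in KO and 0.02 in WT.

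The receptor for ubiquitinated cargo rose in both genotypes. Sqstm1, which encodes that receptor and is itself degraded by autophagy, had log2 signals of 10.33, 11.22 and 10.65 in KO cold, against 9.82, 9.79 and 9.93 in KO room temperature, and 10.61, 10.60 and 10.47 in WT cold, against 9.87, 9.76 and 9.96 in WT room temperature. All cold arrays were above all room temperature arrays. The rise was 1.86-fold in KO (0.89 ± 0.19, adjusted p = 0.00489) and 1.62-fold in WT (0.69 ± 0.19, adjusted p = 0.0219). In WT the size stayed between 0.64 and 0.74 with any one array left out, but the call was lost without room temperature replicate 1 (adjusted p = 0.0552) or 2 (0.0745) or cold replicate 1 (0.0718) or 2 (0.0685). Nbr1, a second ubiquitin receptor, was lower, at -0.32 in KO (adjusted p = 0.0988) and -0.21 in WT (adjusted p = 0.298), and did not pass, except in KO when the test was limited to the brighter genes (adjusted p = 0.0412).

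Of the 3 mitophagy members 2 were measured, and Park2 was not. Neither the measured ones nor the 2 transcription factors passed in either genotype. Pink1, the kinase that marks damaged mitochondria, had log2 signals of 8.20, 8.82 and 8.82 in KO cold, against 8.83, 8.88 and 9.32 in KO room temperature, and 8.56, 8.40 and 8.77 in WT cold, against 8.73, 8.74 and 8.93 in WT room temperature. The cold arrays lay below the room temperature arrays in KO and overlapped them in WT, and the log2 differences were -0.40 in KO (95% interval -0.82 to 0.02) and -0.22 in WT (-0.64 to 0.19). Fundc1, a receptor in the outer mitochondrial membrane, differed by 0.05 in KO (-0.26 to 0.35) and -0.16 in WT (-0.47 to 0.14). Tfe3, a factor that switches on lysosomal and autophagy genes, differed by -0.15 in KO (-0.54 to 0.25) and 0.27 in WT (-0.13 to 0.67). Its relative Tfeb averaged under a log2 signal of 4, where differences are compressed, and showed 0.10 in KO and 0.16 in WT.

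**Figure D2:**
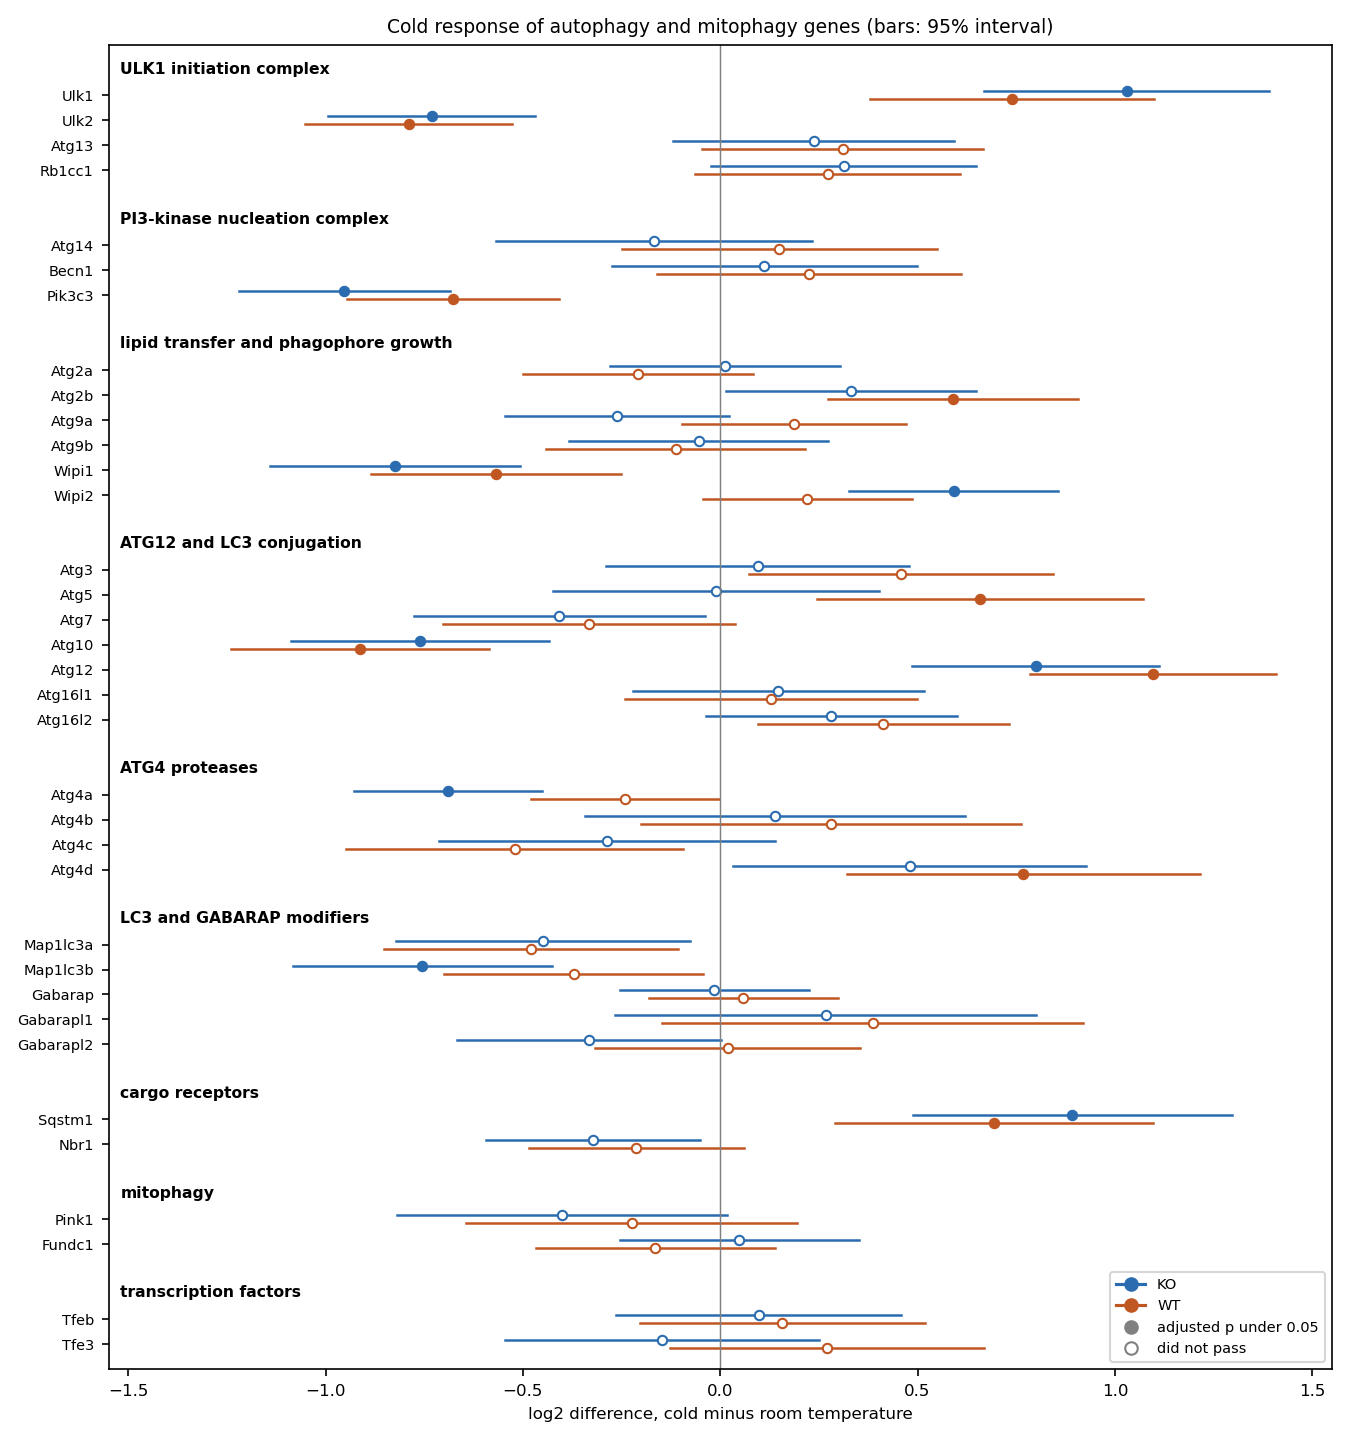
Log2 difference between cold and room temperature for the 35 measured members, grouped by role, with KO drawn above WT in each pair and bars for the 95% interval; filled points passed at an adjusted p under 0.05. Filled points of both colours on the same side appear for Ulk1, Atg12 and Sqstm1 to the right and for Ulk2, Pik3c3, Wipi1 and Atg10 to the left.

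Several of these values moved beside other measured features of the arrays. The macrophage mean was higher in WT cold than in WT room temperature without overlap. Of its 17 genes, 7 passed higher in WT (41.2%, beside 34.4% of brighter genes). In KO 4 passed higher and 2 lower (35.3%, beside 37.3%). The part of macrophages in the member results was not tested. The muscle mean overlapped between temperatures in both genotypes, with 1 of 22 genes called higher in WT and 0 in KO. The mean of 14 brown adipocyte genes separated by temperature in both genotypes, at 9.73 to 9.79 in KO cold, against 8.62 to 8.80 in KO room temperature, and 9.76 to 9.79 in WT cold, against 9.02 to 9.25 in WT room temperature. Of these genes, 5 passed higher in KO, and 3 higher with 1 lower in WT. The median difference over the 14 was -0.12 in KO and 0.07 in WT, so the mean did not stand for the whole list. The part of these genes in the member results was not tested. Of 12 endothelial genes, 3 passed higher and 5 lower in KO (66.7%), and 2 higher and 2 lower in WT (33.3%). Their mean overlapped between temperatures in both genotypes. Of 10 T cell genes, 3 passed higher in WT. Their mean there was 3.33 to 4.03 in the cold, against 2.85 to 3.20 at room temperature. In KO 1 passed lower and the mean overlapped. The part of these 2 lists was not tested either. With the mean of the 22 muscle genes as a covariate, 19 of the 20 cold calls stayed past the threshold, the exception being Wipi1 in WT. Spread was wider in KO cold, where the median SD over the members was 0.23, against 0.14 in KO room temperature, 0.10 in WT cold and 0.13 in WT room temperature. The same held for the brighter genes, at 0.23, against 0.16, 0.12 and 0.16. KO cold replicate 1 was the lowest of its group for 16 of the 32 members at that level, and KO room temperature replicate 2 and WT room temperature replicate 2 were so for 16 and 17. WT cold replicate 1 was the highest of its group for 19 of the 32, and WT room temperature replicate 3 for 17.

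The next comparison was KO against WT at each temperature. At room temperature 0 of the 35 members passed, beside 0.55% of all genes, in limma's test, and 6 had an unadjusted p under 0.05 (17.1%, beside 11.4% of all genes and 13.6% of brighter ones). KO and WT arrays did not overlap for 10 (28.6%, beside 17.0% and 22.2%). In the cold 0 passed, beside 0.911% of all genes, and 4 had an unadjusted p under 0.05 (11.4%, beside 14.4% and 23.5%), with no overlap for 8 (22.9%, beside 20.6% and 30.3%). The members' shares in the cold were thus below those of the brighter genes. The member differences ran from -0.76 to 0.32 in the cold and from -0.575 to 0.41 at room temperature. Their medians were -0.06 and 0.03, and 24 of 35 were below 0 in the cold, against 15 at room temperature. Cell markers also separated the genotypes at room temperature. The brown adipocyte mean was 8.62 to 8.80 in KO, against 9.02 to 9.25 in WT. Of its 14 genes 3 passed lower, and the median difference over the 14 was only -0.08. The macrophage mean was 5.98 to 6.40 in KO, against 5.32 to 5.63 in WT (0 of 17 passed, median difference 0.72). In the cold both means overlapped between KO and WT. Of the brown adipocyte genes 0 of 14 were called there, while 3 of the 17 macrophage genes were called higher in KO. That was 17.6%, beside 0.911% of all genes and 1.59% of brighter ones. The part of these markers in the genotype values, those of Lipa and Rragc below included, was not tested.

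Wipi2 came nearest at room temperature. Its KO values of 8.10, 8.25 and 7.94 all lay below the WT values of 8.77, 8.60 and 8.65, a log2 difference of -0.575 (95% interval -0.84 to -0.31, adjusted p = 0.0644). It passed when the test was limited to the brighter genes (adjusted p = 0.0291), with a trended and robust spread (0.0327), and with each array centred on its median (-0.66, 0.0341). These were 3 of 22 alternative settings, and it passed in no other. Without KO room temperature replicate 3 the difference was -0.50 (adjusted p = 0.186), and without WT room temperature replicate 1 it was -0.53 (0.18). Of the other members with an unadjusted p under 0.05 there, Atg14 at 0.40, Wipi1 at 0.41, Atg9a at 0.37 and Atg4a at 0.28 were higher in KO, and Atg4d at -0.47 was lower, with adjusted p from 0.287 to 0.437.

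In the cold the 4 such members were all lower in KO. Atg4d had 5.94, 6.999 and 6.50 in KO cold, against 7.27, 7.20 and 7.25 in WT cold. All KO arrays lay below all WT arrays, with a log2 difference of -0.76 (adjusted p = 0.112), and its size moved with single arrays: without KO cold replicate 2 it was -1.02 and passed (adjusted p = 0.0218), and without KO cold replicate 1 it was -0.49 (adjusted p = 0.168). Gabarapl2, a GABARAP-type modifier, had 5.08, 5.64 and 5.64 in KO cold, against 6.03, 6.005 and 5.98 in WT cold. These groups did not overlap either, and the difference was -0.55 (adjusted p = 0.123). Atg5 differed by -0.55 (adjusted p = 0.208) and Nbr1 by -0.34 (adjusted p = 0.236). Atg4d was therefore below WT at both temperatures, without passing at either. The 2 comparisons share no arrays with each other, but they share the estimate of spread, and each shares a group with a cold comparison above.

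**Figure D3:**
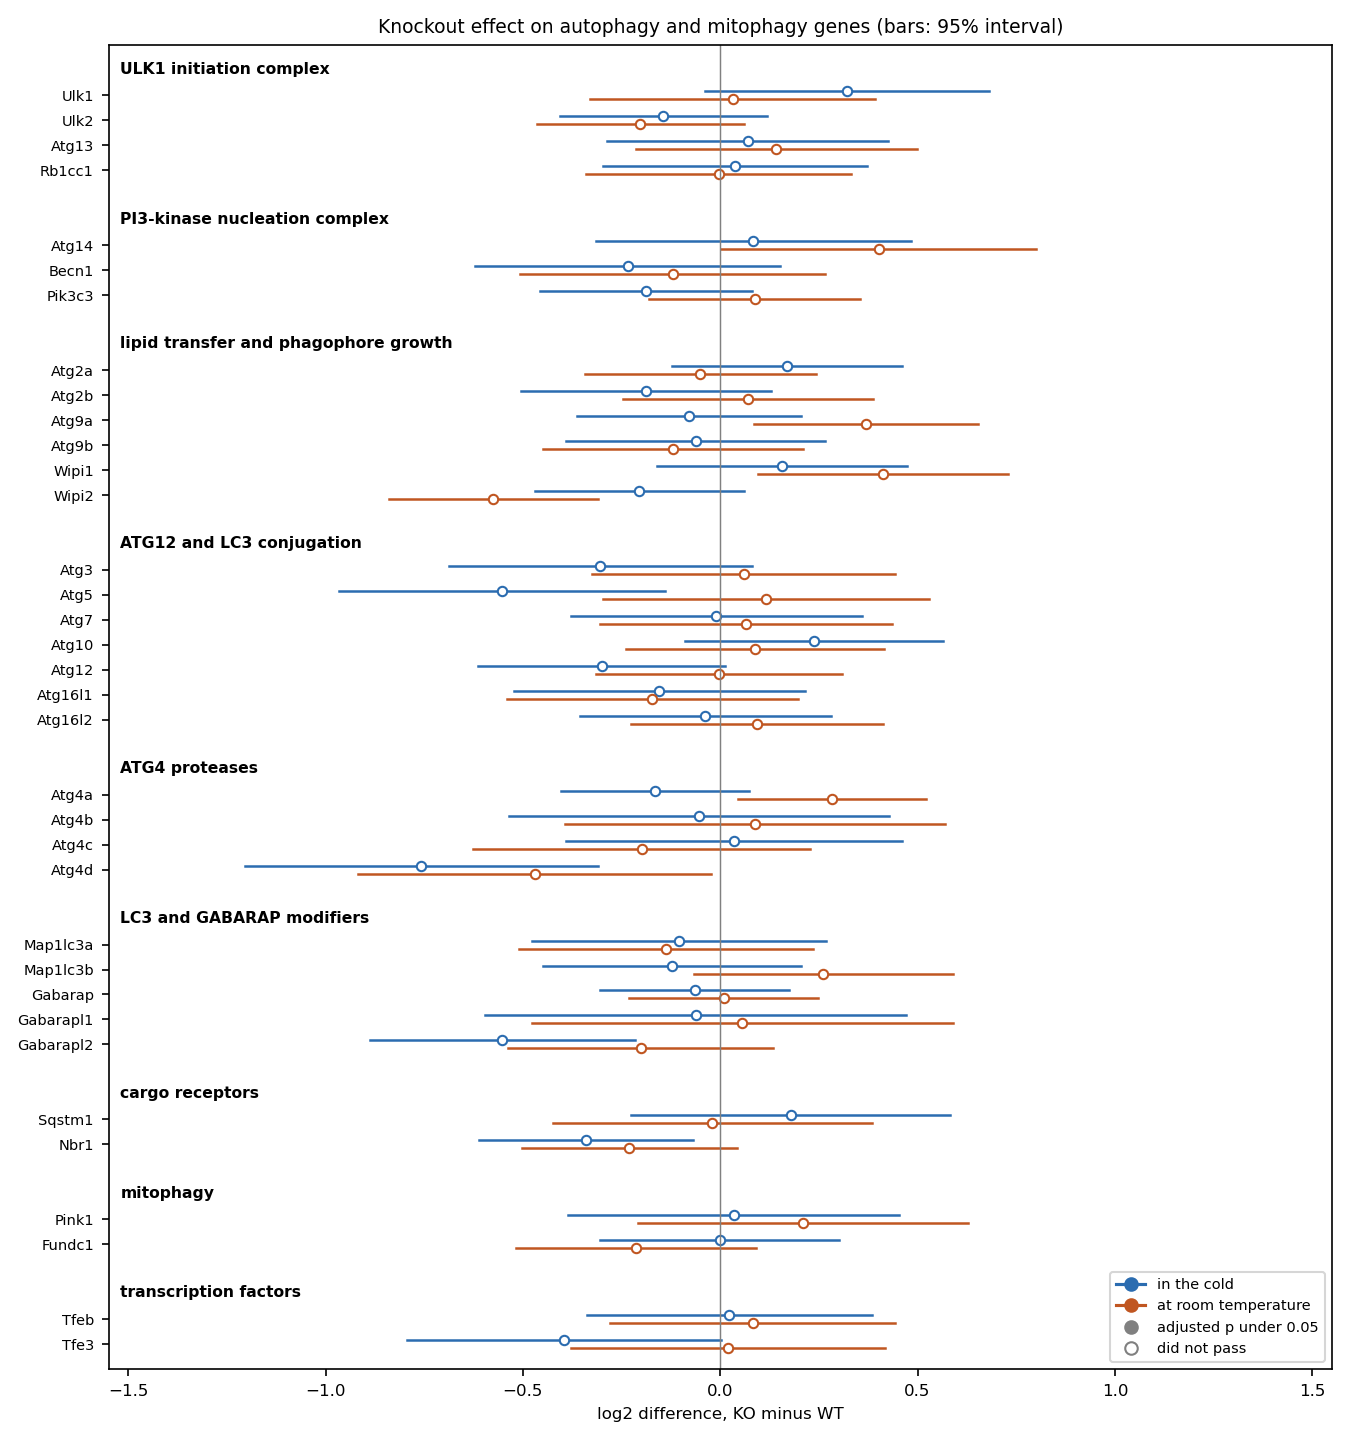
Log2 difference between KO and WT for the 35 measured members, grouped by role, with the cold drawn above room temperature in each pair and bars for the 95% interval. All points are open because 0 members passed at an adjusted p under 0.05 at either temperature.

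Whether the cold response itself differed between KO and WT was asked with the interaction of genotype and temperature. Among the members 0 passed in limma's test, beside 0.0271% of all genes, and 3 had an unadjusted p under 0.05 (8.57%, beside 10.5%). These were Atg5 at -0.67 and Atg9a at -0.45 (95% interval -0.85 to -0.05, adjusted p = 0.424), and Atg4a at -0.45 (-0.79 to -0.11, adjusted p = 0.357). The 6 genes called in 1 genotype are therefore not shown to differ between genotypes. For Wipi2 the interval of the difference was -0.00 to 0.74, for Map1lc3b -0.85 to 0.08, for Atg2b -0.71 to 0.19 and for Atg4d -0.92 to 0.34, so differences of the size of the cold effects themselves lay within the intervals.

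The surrounding pathway was read from 5 lists. Of 15 further genes of initiation and nucleation, 2 were higher and 2 lower in the cold in KO, and 3 higher and 1 lower in WT. Tbk1, a kinase that phosphorylates cargo receptors, rose by 0.66 on the log2 scale in KO (adjusted p = 0.0016) and by 0.84 in WT (adjusted p = 0.000381). Ambra1, a partner of beclin 1, rose by 0.71 in KO (adjusted p = 0.00611) and by 0.67 in WT (adjusted p = 0.00935). These rises held in all 22 alternative settings.

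Among 14 genes that fuse autophagosomes with lysosomes, 0 were higher and 3 lower in KO, and 2 higher and 2 lower in WT. Stx17, the syntaxin of the closed autophagosome, fell by 1.06 on the log2 scale in KO (adjusted p = 0.000185) and by 0.50 in WT (adjusted p = 0.0192). In WT the call was lost without room temperature replicate 3 (adjusted p = 0.0668), cold replicate 1 (0.0804) or cold replicate 3 (0.0519). Vps39, of the tethering complex HOPS, fell by 0.71 in KO (adjusted p = 0.00192) and by 0.65 in WT (adjusted p = 0.00373). Of 17 measured mitophagy receptors and regulators outside the members, 4 were higher and 2 lower in KO, and 5 higher and 2 lower in WT. Calcoco1, a relative of NDP52 whose own part in mitophagy was not tested here, fell by 0.90 in KO (adjusted p = 0.00611) and by 1.22 in WT (adjusted p = 0.00107). Pgam5, a mitochondrial phosphatase that acts on FUNDC1, rose by 0.63 in KO (adjusted p = 0.017) and by 0.82 in WT (adjusted p = 0.0045), and its KO call was lost without KO cold replicate 2 (0.44, adjusted p = 0.0557) and with the 6 KO arrays alone (0.0702).

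Of 28 measured lysosomal genes, many of them TFEB targets, 5 were higher and 4 lower in KO, and 7 higher and 3 lower in WT. Flcn, which encodes folliculin, a regulator of the lysosomal Rag GTPases, rose by 1.25 on the log2 scale in KO (2.38-fold, adjusted p = 0.00178) and by 1.56 in WT (2.95-fold, adjusted p = 0.00049). Gla, a lysosomal galactosidase, rose by 0.81 in KO (adjusted p = 0.0034) and by 1.14 in WT (adjusted p = 0.000484). Naglu, another lysosomal hydrolase, moved the other way, with a fall of 1.41 in KO (2.66-fold, adjusted p = 0.00275) and 1.67 in WT (3.18-fold, adjusted p = 0.00109). Of the 6 subunits of the lysosomal proton pump on the list, 2 passed higher in KO and 4 in WT, with Atp6v1h at 0.81 in KO (adjusted p = 0.00589) and 1.19 in WT (adjusted p = 0.000597). Atp6v0d1 at 0.76, Atp6v1d at 0.79 and Atp6v1a at 0.60 were the other WT calls, and Atp6v0d1 at 0.47 the other KO call, all singled out after their values were seen. The WT call of Atp6v1a was lost without room temperature replicate 1 (adjusted p = 0.0855) or 3 (0.0581) or any one of the cold arrays (0.0507 to 0.0854), and with the muscle covariate (0.06). The KO call of Atp6v0d1 was lost without room temperature replicate 3 (0.053) or cold replicate 2 (0.0535) and with the 6 KO arrays alone (0.0697), and it fell short of 1.5-fold.

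Of 20 regulators in the mTORC1, AMPK and FoxO pathways, which govern autophagy from above, 3 were higher and 4 lower in KO, and 5 higher and 2 lower in WT. Fnip1, the partner of folliculin, rose by 0.96 on the log2 scale in KO (adjusted p = 0.00153) and by 0.85 in WT (adjusted p = 0.0035). Sesn1, a leucine sensor, fell by 1.19 in KO (adjusted p = 0.00124) and differed by -0.60 in WT (adjusted p = 0.0567), and Castor1, an arginine sensor, fell by 1.25 in KO (adjusted p = 0.00147) and differed by -0.51 in WT (adjusted p = 0.129). The differences between the cold effects were -0.59 for Sesn1 and -0.74 for Castor1 and did not pass (adjusted p = 0.484 and 0.419). Beside the backgrounds of 37.3% in KO and 34.4% in WT among genes of at least log2 5, the lists ran from 21.4% to 35.3% called in KO and from 26.7% to 41.2% in WT.

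Between genotypes, 1 gene of these lists passed at each temperature. Rragc, a Rag GTPase that brings mTORC1 to the lysosome, had log2 signals of 8.69, 8.91 and 8.58 in KO cold, against 9.68, 9.44 and 9.49 in WT cold. It was 1.76-fold lower in KO without overlap (-0.81 ± 0.17, adjusted p = 0.0465), with adjusted p up to 0.187 over 22 alternative settings, of which 10 kept the call. It was lost without WT cold replicate 1 (0.187), 2 (0.12) or 3 (0.131), without KO cold replicate 1 (0.0817) or 3 (0.111), and, through the shared spread, without KO room temperature replicate 2 (0.0663) or WT room temperature replicate 1 (0.0642) or 3 (0.062). In the cold it rose by 1.07 in WT (adjusted p = 0.00096) and differed by 0.26 in KO (adjusted p = 0.344), and the difference between these did not pass (-0.81, adjusted p = 0.287). Lipa, the lysosomal acid lipase, had 9.35, 9.27 and 9.34 in KO room temperature, against 10.34, 10.11 and 10.21 in WT room temperature. It was 1.86-fold lower in KO, also without overlap (-0.90 ± 0.16, adjusted p = 0.0298), and 13 of 22 settings kept the call, which was lost without any one of these 6 arrays (adjusted p from 0.0695 to 0.113). Between cold and room temperature Lipa differed by -0.83 in WT (adjusted p = 0.00368), a call kept in all 22 settings. In KO it differed by -0.26 (adjusted p = 0.323), and the difference between these cold effects did not pass (0.57, adjusted p = 0.413).

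**Figure D4:**
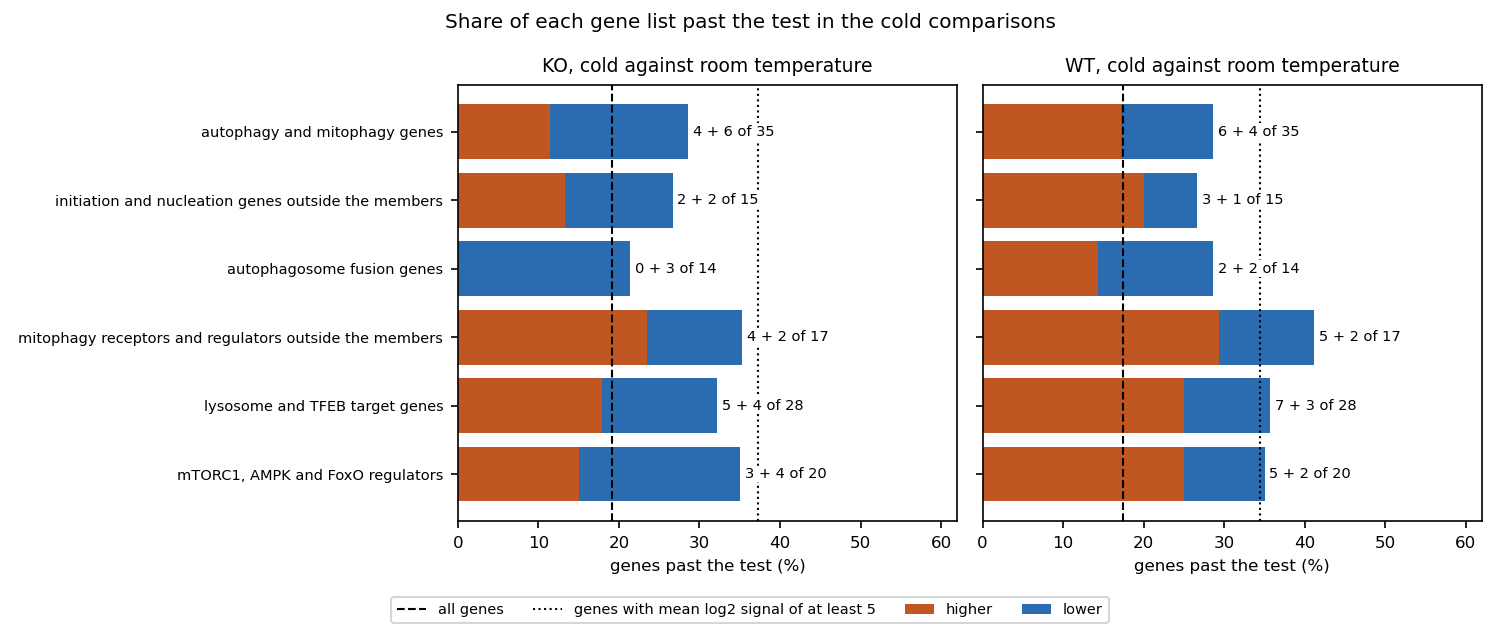
Share of each gene list that passed at an adjusted p under 0.05 between cold and room temperature, KO on the left and WT on the right, split into higher and lower; the dashed line is the share over all genes (19.2% and 17.4%) and the dotted line that over genes averaging log2 5 or more (37.3% and 34.4%). The members stand at 28.6% in both, between the lines.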

How the data were processed

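Brown fat RNA, 400 ng per array by the labels, was hybridised to 12 arrays, 3 per group. The deposited values are log2 signals that the authors made with RMA (oligo and limma are also named, without versions, per the submitters' processing notes). Their scale was checked on the range of the values, and array medians ran from 2.63 to 2.83. Precision is limited by the number of arrays. Groups were taken from the titles.

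Of 41345 probe sets, 23521 carried 1 gene symbol, 1814 several and 16010 none. The brightest probe set over the 12 arrays stood for each of the 1082 genes with several, which left 22180 genes, dim ones included. A mean per group was fitted over all arrays with limma 3.58.1 (R 4.3.3) and moderated spread. Tests were two-sided, with Benjamini-Hochberg adjustment for the whole set of genes in each comparison. Folds are 2 to the power of the log2 difference. The code was tested on simulated data.

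The members and lists were chosen with earlier results of these data known, so they carry no independent evidence. All measured members are named, with Zbtb7b and, from each pathway list, some of the up to 4 genes per comparison that passed with the smallest p. Among the promoter windows, motifs were searched as exact letters on both strands. Alternatives were averaging a gene's probe sets, a minimum mean log2 signal of 5, cyclic loess, median centring, trended robust spread, array weights, a replicate block, a minimum change of 1.5-fold, a skeletal muscle covariate, 6 arrays alone, and each array left out in turn. Same-numbered arrays deviated from their group means with correlations of -0.537 to 0.451 over 18 pairs, so the numbers were not taken as pairs.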

Additional observations from a re-analysis of the deposited data

Results flagged for a closer look

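Atg4a stood out because KO and WT changed places with temperature. In the cold all KO arrays (6.55, 6.51 and 6.46) lay below all WT arrays (6.73, 6.62 and 6.68), a log2 difference of -0.17, and at room temperature all KO arrays (7.31, 7.17 and 7.11) lay above all WT arrays (6.84, 6.93 and 6.97), a difference of 0.28. The difference between these was -0.45 and did not pass over all genes in limma's interaction test (adjusted p = 0.357, between 0.214 and 0.58 over the alternative settings, at values of -0.49 to -0.31). Non-overlap of KO and WT was seen for 20.6% of all genes and 30.3% of brighter ones in the cold. At room temperature the shares were 17.0% and 22.2%. The share of genes with non-overlap in opposite directions at the 2 temperatures was not counted.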

How the results depend on the processing

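The 20 member calls of the cold comparisons were recomputed under 22 settings, which gave 440 values. Of these, 419 kept the direction and the call, 21 kept the direction without passing and 0 reversed, and 15 of the 20 calls passed throughout. The 5 that did not were all in WT: Atg2b, Wipi1, Atg5, Atg4d and Sqstm1. Wipi1 in WT also fell short of a 1.5-fold change. For KO against WT at room temperature, the count of members lower was 1 over genes averaging log2 5 or more, with median centring and with trended robust spread, Wipi2 each time, against 0 otherwise. With each array left out in turn, members lower in KO in the cold numbered 0 to 1 (1 without KO cold replicate 2, Atg4d), and members higher and lower with cold numbered 4 to 5 and 6 to 7 in KO, and 2 to 7 and 3 to 5 in WT. In WT the count higher was 2 without room temperature replicate 2, 2 without cold replicate 1 and 3 without cold replicate 2. No member passed the interaction in any setting. The replicate block, on numbers not taken as pairs, ended 1 call, Atg5 in WT (0.66, adjusted p = 0.0501). Median centring moved the median of all genes by 0.103 in the interaction, where 0 members passed with it, and by at most 0.0825 in the other comparisons. Precision is limited by 3 arrays per group, and signal over background limits Atg9b, Tfeb and Atg16l2, the 3 members averaging under log2 4.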
